A study of Homo sapiens with 2 samples.

Results

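The SLC25A genes encode the mitochondrial carriers, a large family of solute transporters in human cells. The family was taken as every probe set whose platform annotation reads SLC25A followed by a number, with pseudogenes left out. This gave 49 probe sets for 46 genes, out of 33297 probe sets on the array and 21214 with a gene symbol, and 0 of the 49 carried more than 1 symbol. The probe sets came from 2 samples of K562, an established human chronic myeloid leukaemia line with an erythroid character, whose cells held an inducible shRNA against Bmi1 (shBmi1). One sample was incubated with doxycycline for 96 h to switch on the hairpin and the other, the control, with none. The hairpin construct is therefore common to both groups, and 0 samples received doxycycline without it, so doxycycline itself and silencing of BMI1 cannot be told apart. Whether the line was 1 clone or a pool, and how long the control was incubated, is not given in the labels. Each group held 1 sample on 1 array, which leaves no replicate spread to compare any difference with, so every difference below is a description of these 2 samples without a test, and the number of arrays limits its precision.

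Most mitochondrial carriers sit in the inner membrane, where each is built from a thrice-repeated pair of membrane helices and exchanges small solutes between the cytosol and the matrix. They bring ADP and phosphate to the ATP synthase, pass aspartate and citrate out of the matrix, and supply it with glutamate, iron, nucleotides and cofactors. In erythroid cells they are best known for mitoferrin-1 and the glycine carrier, which feed haem synthesis. Levels are given as log2 RMA values. A difference is the log2 value of the doxycycline sample minus that of the control, and the doxycycline value comes first in each pair. Values of different probe sets depend on their probes as well as on the RNA, so levels were compared only within a probe set. A probe set passed the floor where the higher of its 2 values reached 6, and 46 of the 49 did.

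BMI1, the target of the hairpin, was measured by a probe set that its read-through with COMMD3 shares. It read 10.00 with doxycycline against 10.84 in the control, which left 55.9% of the signal. Erythroid genes were looked at beside the K562 label, and all 11 probe sets found for them (10 of 12 genes) passed the floor in these samples. All 11 were also lower with doxycycline, with a median difference of -0.25, and 5 of them were at least 1.2-fold lower, against 4.27% of all probe sets with a symbol. Among markers of other cells, 1 of 5 lymphocyte probe sets, 4 of 5 myeloid and 6 of 7 stromal or epithelial probe sets passed the floor. Their median differences were -0.25, -0.02 and -0.01. Of all 21214 probe sets with a symbol 15573 passed, so passing the floor does not by itself check the label. Over all 33297 probe sets the medians of the samples were 6.77 with doxycycline and 6.78 without.

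Differences within the carrier family were small, and more of its probe sets were lower than higher in the doxycycline sample. Of the 46 past the floor, 33 (71.7%) were lower and 13 (28.3%) higher, against 49.2% lower and 49.9% higher among all 15573 probe sets with a symbol past the same floor. The median difference was -0.06 for the family, with quartiles of -0.14 and 0.04, and 0 for all probe sets, with quartiles of -0.10 and 0.10. The lean was thus a small one, spread over many members. At least 1.2-fold, a difference of 0.26, was reached upwards by 1 of 46 (2.17%), SLC25A30, against 5.89% of all probe sets. It was reached downwards by 1 of 46 (2.17%), the dimmer probe set of SLC25A51, against 4.27%. At 1.5-fold 0 members were higher and 0 lower, where 0.379% of all probe sets were higher and 0.154% lower. The family's shares at 1.2-fold rest on 1 probe set in each direction and were not above those of the array as a whole. Just short of the 1.2-fold size lay SLC25A10 at -0.25, SLC25A18 at 0.22, the dimmer probe set of SLC25A37 at -0.22 and SLC25A45 at -0.21.

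**Figure D1:**
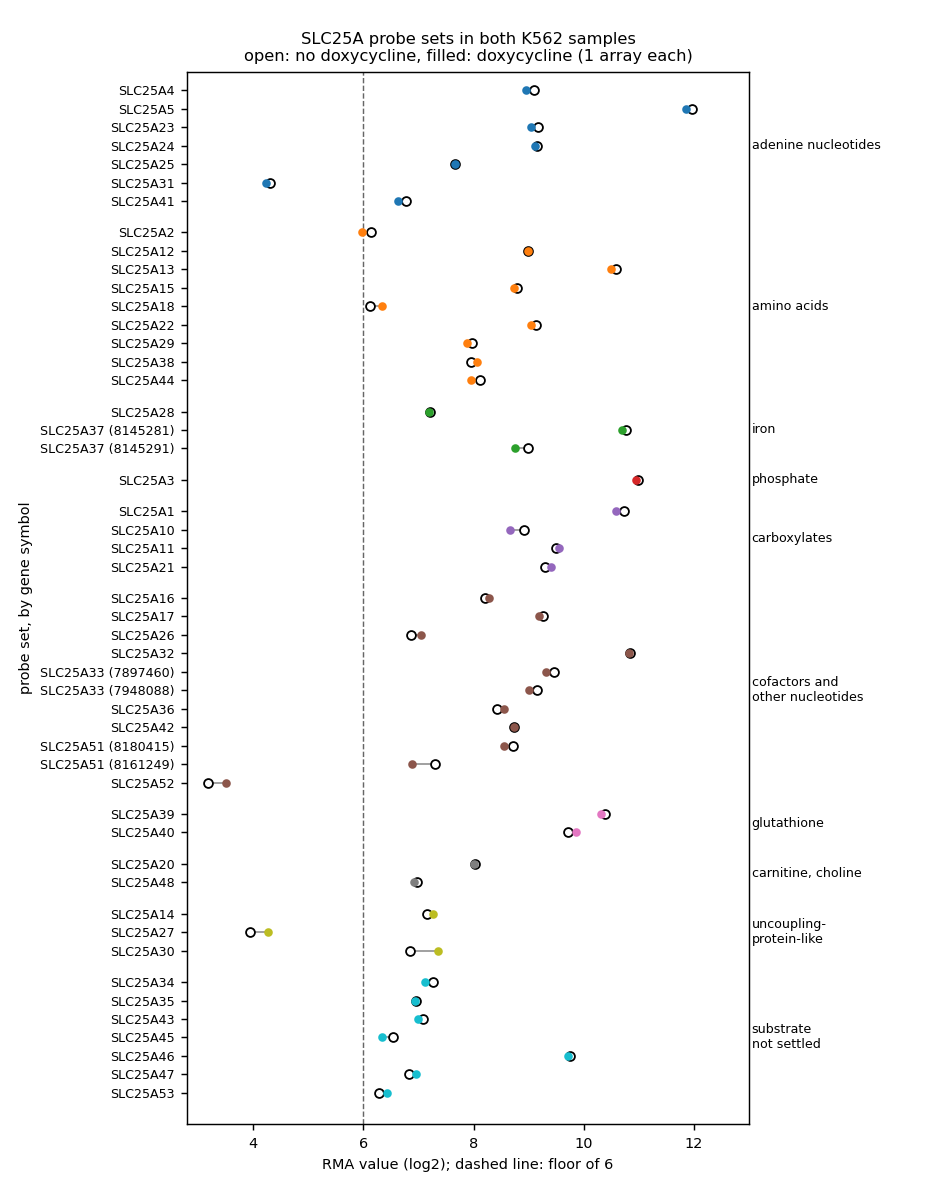
Log2 RMA value of each of the 49 SLC25A probe sets without doxycycline (open circle) and with it (filled circle), 1 array each, grouped by substrate; the dashed line is the floor of 6. The circles of most probe sets touch or overlap, and the widest gaps past the floor are those of SLC25A30 and of the SLC25A51 probe set 8161249.

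The carriers of adenine nucleotides comprise the ADP/ATP exchangers, which hand ATP to the cytosol in return for ADP, and the carriers that swap ATP-Mg for phosphate. All 6 of their probe sets past the floor were lower with doxycycline, against 49.2% of all probe sets with a symbol. Their median was -0.12, and 0 reached 1.2-fold. The 6 include SLC25A24 and SLC25A25, whose differences were close to 0, as given below. SLC25A4, the exchanger of heart and muscle, stood at 8.95 against 9.10 (-0.15). SLC25A5, the exchanger of dividing cells, stood at 11.86 against 11.98 (-0.12). Among the 500 probe sets nearest in level, differences had a robust SD of 0.14 for SLC25A4 and 0.11 for SLC25A5, so both lay close to the spread of other genes. SLC25A31, the exchanger of the germ line, was under the floor in both samples, at 4.22 and 4.30. SLC25A6, the remaining ADP/ATP exchanger gene, was not analysed here. Among the ATP-Mg carriers, SLC25A23 differed by -0.12 (9.04 against 9.17) and SLC25A41 by -0.14 (6.63 against 6.77). These genes overlap in RefSeq, and the annotation used gives no strand, so their values may not be separate. SLC25A24 differed by -0.02 (9.12 against 9.15) and SLC25A25 by -0.000864 (7.67 in both), so these ATP-Mg carriers stood nearer to 0 than the other members. The transcript SLC25A5-AS1, which overlaps SLC25A5 in RefSeq and was left out of the family, differed by -0.16 (7.35 against 7.50).

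The promoters of SLC25A4 and SLC25A5 are shown because these exchangers belong to the adenine nucleotide group, whose 6 probe sets past the floor were all lower. They run from 250 bases before to 50 after the start site in RefSeq, build GRCh38.p14, at chr4:185143016-185143315 on the plus strand and chrX:119468194-119468493 on the plus strand. Capitals mark exact matches on either strand to any of 4 motifs: GCGCANGCG for NRF1, a regulator of nuclear genes for mitochondria; CCGGAAG for ETS factors such as GABP; CACGTG, the E-box bound by MYC; and TGATGNAA for ATF4 with its partners. These motifs do not overlap each other in the windows shown.
SLC25A4: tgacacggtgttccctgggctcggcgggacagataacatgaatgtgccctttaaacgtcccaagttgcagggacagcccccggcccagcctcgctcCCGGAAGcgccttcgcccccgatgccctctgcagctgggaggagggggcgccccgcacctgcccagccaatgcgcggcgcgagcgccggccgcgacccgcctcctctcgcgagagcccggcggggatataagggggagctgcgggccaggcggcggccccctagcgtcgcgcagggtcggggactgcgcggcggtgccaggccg
SLC25A5: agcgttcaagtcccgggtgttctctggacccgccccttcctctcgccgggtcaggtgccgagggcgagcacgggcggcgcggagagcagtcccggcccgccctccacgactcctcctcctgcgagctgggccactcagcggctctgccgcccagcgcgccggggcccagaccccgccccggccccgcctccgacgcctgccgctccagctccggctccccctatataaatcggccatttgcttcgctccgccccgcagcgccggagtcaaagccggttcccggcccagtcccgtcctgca
SLC25A4 had 1 match, to the ETS motif, 154 bases before the start site, and SLC25A5 had 0 matches. Both windows were rich in G and C, at 73.3% and 73.7%. A promoter was found for 39 of the 46 genes, and SLC25A30 and SLC25A37 were among those without one. Of the 39, 6 had several promoter entries. A gene was counted if any of its entries held the motif, in the family and among all genes. The ETS motif was present in 11 of the 39 (28.2%), against 12.2% of 27305 genes with a promoter in the table. The E-box was present in 9 (23.1%) against 8.77%, the NRF1 motif in 5 (12.8%) against 9.02%, and the ATF4 motif in 1 (2.56%), SLC25A11, against 4.46%. The windows of the family also had a higher median GC content, 65.7% against 58.7%, which bears on how often such motifs occur. The 27305 genes were not limited to those on the array or past the floor, so they are not a matched background. Among members past the floor, the median difference was -0.02 for the 11 genes with the ETS motif and -0.08 for the 25 without it. It was -0.06 for 8 genes with the E-box and -0.04 for 28 without. These medians are descriptions, and no difference between genes with and without a motif was tested.

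Amino acid carriers went both ways, with 6 of 9 probe sets lower, 3 higher, a median of -0.09 and 0 at 1.2-fold. The aspartate/glutamate carriers of the malate-aspartate shuttle were close to equal between the samples. SLC25A12 stood at 8.99 in both, a difference of 0.0065, and SLC25A13 at 10.49 against 10.59, a difference of -0.09. The glutamate carriers differed in sign. SLC25A22 stood at 9.04 with doxycycline and 9.13 without (-0.09), and SLC25A18 at 6.33 against 6.11 (0.22). SLC25A18 was near the floor, where the robust SD at similar level was 0.19. Carriers of urea-cycle and basic amino acids were on the lower side. SLC25A15, the ornithine/citrulline exchanger, stood at 8.73 against 8.80 (-0.07), and its paralogue SLC25A2 at 5.98 against 6.14 (-0.16). SLC25A2 was under the floor with doxycycline and passed only through the control. SLC25A29, which carries arginine and lysine, stood at 7.89 against 7.98 (-0.09). SLC25A38, which imports glycine for haem synthesis, was on the higher side, at 8.06 against 7.96 (0.10). SLC25A44, a carrier of branched-chain amino acids, was on the lower side, at 7.96 against 8.11 (-0.15).

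Both mitoferrins, the iron importers of the inner membrane, were lower with doxycycline by small amounts, with a median of -0.07 over 3 probe sets and 0 at 1.2-fold. SLC25A37, mitoferrin-1, the erythroid form, had 2 probe sets. The first stood at 10.70 against 10.77 (-0.07) and the second at 8.76 against 8.98 (-0.22), so they had the same sign but differed in size. SLC25A28, mitoferrin-2, the form of other tissues, stood at 7.19 against 7.21 (-0.02). The erythroid genes looked at beside the K562 label were lower as well, as given above. Among them were GATA1 at -0.18, KLF1 at -0.28 and the 2 probe sets of HBZ at -0.44 and -0.65. Outside that list, ALAS2 of erythroid haem synthesis (0.22) and the glycine carrier SLC25A38 (0.10) were higher. The part of the erythroid genes in the mitoferrin values was not tested. SLC25A3, the phosphate carrier, which also brings copper to cytochrome oxidase, was nearly equal, at 10.95 against 10.99 (-0.03).

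Carboxylate carriers were divided evenly, with 2 of 4 lower and 2 higher and a median of -0.05. SLC25A10, which exchanges malate and succinate for phosphate, stood at 8.67 with doxycycline and 8.92 without. This difference of -0.25, or 1.19-fold lower, was the next after SLC25A51 on the lower side of the family, and the robust SD at its level was 0.14. SLC25A1, the citrate exporter that supplies fatty acid synthesis, stood at 10.59 against 10.73 (-0.14). SLC25A11, the oxoglutarate/malate exchanger of the malate-aspartate shuttle, was on the other side, at 9.55 against 9.51 (0.05). SLC25A21, a carrier of 2-oxoadipate and related acids, stood at 9.41 against 9.30 (0.12).

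Carriers of cofactors and of nucleotides other than ATP held the largest lower value of the family and several higher ones, with 7 of 10 probe sets past the floor lower and a median of -0.04. SLC25A51, which imports NAD, had 2 probe sets. The one with the higher signal stood at 8.56 with doxycycline and 8.72 without (-0.16), and the other at 6.88 against 7.30 (-0.42, or 1.34-fold lower). The direction was thus shared, but the 1.2-fold size rested on the dimmer probe set, where the robust SD at similar level was 0.16. Transcribed pseudogenes share sequence with SLC25A51, so its values are uncertain. Of these, SLC25A51P4 differed the other way, by 0.10 (6.81 against 6.71), and SLC25A51P1 was under the floor at 5.20 and 4.82. SLC25A52, a close copy of SLC25A51, was also under the floor, at 3.51 against 3.18. The promoter of SLC25A51, shown because the gene had the lowest value in the family, lies at chr9:37904078-37904377 on the minus strand of GRCh38.p14, from RefSeq.
SLC25A51: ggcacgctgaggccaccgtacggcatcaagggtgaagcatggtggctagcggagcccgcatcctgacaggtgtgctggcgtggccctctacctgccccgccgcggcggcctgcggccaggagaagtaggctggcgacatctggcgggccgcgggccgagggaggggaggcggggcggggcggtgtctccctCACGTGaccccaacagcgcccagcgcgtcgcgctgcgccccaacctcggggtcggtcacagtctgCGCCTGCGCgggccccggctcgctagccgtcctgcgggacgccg
The capitals mark an E-box that starts 59 bases before the start site and an NRF1 motif on the opposite strand of the window, 6 bases after it. Both carriers of pyrimidine nucleotides were measured, and they differed in sign. SLC25A33 had 2 probe sets, at 9.31 against 9.47 (-0.16) and 9.01 against 9.16 (-0.15), so both were lower by nearly the same amount. Whether each of them detects SLC25A33 alone was not checked. SLC25A36 stood at 8.56 against 8.42 (0.14). SLC25A26, which imports the methyl donor S-adenosylmethionine, was on the higher side, at 7.04 against 6.87 (0.17). SLC25A16, linked to coenzyme A, stood at 8.29 against 8.21 (0.07), while SLC25A42, the coenzyme A carrier, stood at 8.74 in both samples (-0.00104). SLC25A17, a carrier of the peroxisome, differed by -0.06 (9.19 against 9.25). SLC25A32, which moves folate or FAD, stood at 10.83 against 10.85 (-0.02). The last 4 carriers each differed by less than the robust SD at their level.

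**Figure D2:**
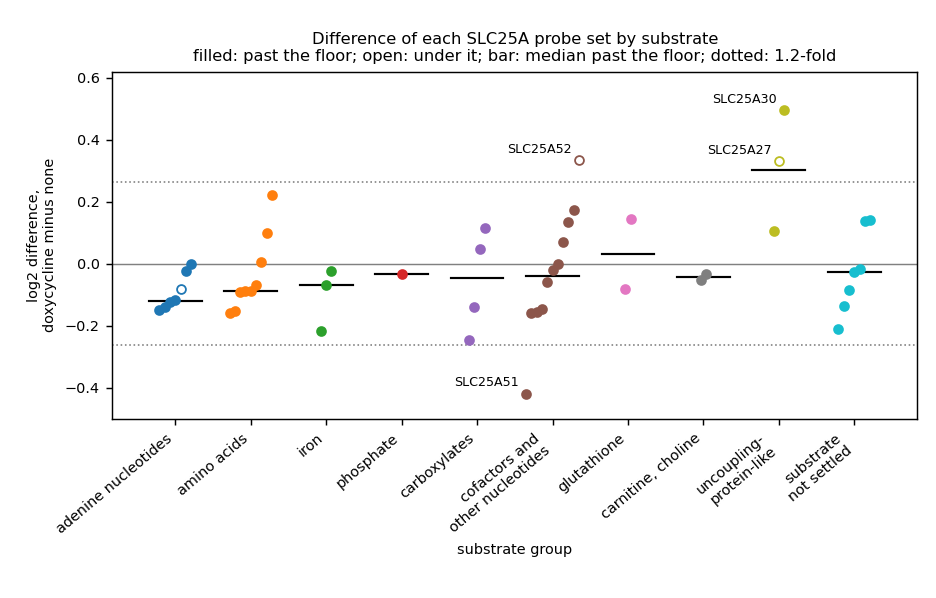
Log2 difference, doxycycline minus none, of each SLC25A probe set by substrate group, with filled points past the floor of 6, open points under it, bars at the group median past the floor and dotted lines at 1.2-fold. The points of the adenine nucleotide, iron, phosphate, and carnitine and choline groups all lie below 0, with 1 point for phosphate. SLC25A30 and 1 SLC25A51 probe set are the filled points beyond the dotted lines.

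The highest value of the family belonged to a carrier close to the uncoupling proteins. SLC25A30, also known as kidney mitochondrial carrier protein 1, read 7.35 in the doxycycline sample against 6.86 in the control. This was a difference of 0.50, or 1.41-fold higher. The robust SD of differences at its level was 0.16, and it had 1 probe set, so no other measurement of the gene was at hand. Among its relatives, SLC25A14 stood at 7.27 against 7.16 (0.11), less than the robust SD of 0.15 at its level. SLC25A27, a carrier of neurons, was under the floor in both samples, at 4.28 against 3.94. The uncoupling proteins UCP1, UCP2 and UCP3 carry other symbols and are counted among the other mitochondrial transporters. Of these, UCP3 is named below and was lower, at -0.19.

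Of the remaining 11 probe sets, 8 were lower, 3 were higher and 0 differed by 1.2-fold. The glutathione carriers differed in sign, with SLC25A39 at 10.31 against 10.40 (-0.08) and SLC25A40 at 9.86 against 9.71 (0.14). SLC25A20, which exchanges acylcarnitine for carnitine in fatty acid oxidation, stood at 8.003 against 8.04 (-0.03), and SLC25A48, linked to choline, at 6.92 against 6.98 (-0.05). Of the 7 members whose substrate is not settled, 5 were lower and 2 higher, with a median of -0.03. SLC25A46, an outer membrane protein of mitochondrial shape control, stood at 9.72 against 9.75 (-0.03). SLC25A45 was the lowest of the 7, at 6.33 against 6.54 (-0.21), where the robust SD at similar level was 0.19. SLC25A34 differed by -0.14 (7.12 against 7.26), SLC25A43 by -0.08 (6.998 against 7.08) and SLC25A35 by -0.02 (6.95 against 6.96). SLC25A47, a liver carrier, differed by 0.14 (6.96 against 6.82) and SLC25A53 by 0.14 (6.43 against 6.29).

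**Figure D3:**
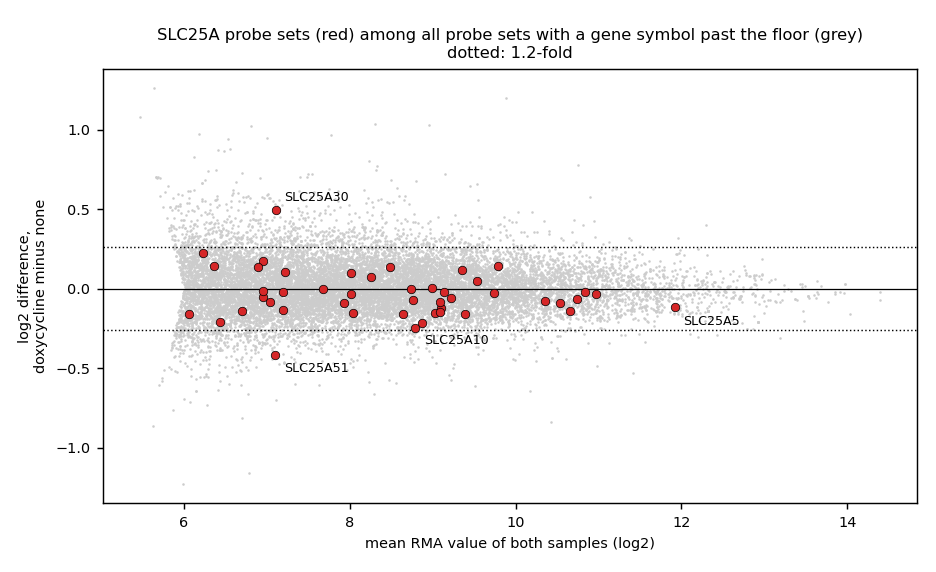
Log2 difference, doxycycline minus none, against the mean log2 RMA value for all 15573 probe sets with a gene symbol past the floor (grey) and the 46 of the SLC25A family (red), with dotted lines at 1.2-fold. The red points lie inside the grey cloud and more often below 0 than above it, 33 against 13.

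The family was also described by level of signal. With a mean of at least 8, 22 of 29 members (75.9%) were lower, against 49.8% of 8062 probe sets, and the medians were -0.07 and 0. With a mean under 8, 11 of 17 members (64.7%) were lower, against 48.6% of 7511, and the medians were -0.02 and 0. Members with a longer genomic span in RefSeq tended to have higher differences, with a Spearman's rho of 0.34 across the 46 probe sets. The same rho was 0.17 across 14224 probe sets with 1 symbol, so the array as a whole had this trend too. These are descriptions across probe sets that share the same 2 arrays and are not independent, and the part of gene span in the family's values was not tested.

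Genes that work with the carriers lay on both sides of 0, and their lists were described in the same way, beside the same 49.2% lower and median of 0 of all probe sets. Subunits of ATP synthase, which uses the ADP and phosphate brought in, were lower in 12 of 14 probe sets, with a median of -0.12. At least 1.2-fold lower were 2 of the 14, ATP5MC3 (-0.30) and ATP5MF (-0.27), against 4.27% of all probe sets. ATP5PB, at -0.22, followed. Genes of iron-sulphur clusters and haem that use mitochondrial iron were lower in 10 of 13, with a median of -0.09, and 1 of the 13 was at least 1.2-fold lower. Their furthest members were GLRX5 (-0.27), FDX2 (-0.19) and ISCA1 (-0.18), all of iron-sulphur cluster assembly. GLRX5 was the 1 at 1.2-fold, and whether its probe set detects that gene alone was not checked. Other transporters and pores of mitochondria were lower in 14 of 22, with a median of -0.04 and 0 at 1.2-fold. Furthest from 0 were VDAC2, an outer membrane pore, at -0.23, UCP3, an uncoupling protein, at -0.19 and LETM1, an ion exchanger, at -0.18. UCP3 was not far above the floor, at 6.60 against 6.79. These lists lay on the same side as the adenine nucleotide carriers and mitoferrins.

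The 4 lists of metabolic enzymes had medians above 0, between 0.06 and 0.14. At least 1.2-fold higher were 1 of 17 probe sets for amino acid enzymes, 4 of 16 for cofactor enzymes, 2 of 10 for carboxylate enzymes and 1 of 8 for fatty acid oxidation, against 5.89% of all probe sets. Enzymes of the transported amino acids were higher in 12 of 17 probe sets, against 49.9% of all, with a median of 0.07, led by ASNS, which makes asparagine from aspartate, at 0.48, ALAS2, the first enzyme of erythroid haem synthesis, at 0.22 and ARG2, a mitochondrial arginase, at 0.20. Enzymes of cofactor metabolism were higher in 10 of 16 probe sets (14 genes), with a median of 0.06. The furthest were ALDH1L2, a mitochondrial folate enzyme, at 0.96, PANK2, a pantothenate kinase, at 0.38 and MTHFD2L, another folate enzyme, at 0.35. MTHFD2L was near the floor, at 6.52 against 6.16. SLC25A32 and SLC25A26, carriers for folate and for the methyl donor, stood at -0.02 and 0.17 beside these enzymes. Carboxylate enzymes were higher in 6 of 10, with a median of 0.06 that was 0.01 with a floor of 8, and the isocitrate dehydrogenases IDH1 (0.40) and IDH2 (0.24) and the PEP carboxykinase PCK2 (0.29) were furthest from 0. Genes of fatty acid oxidation were higher in 7 of 8, with a median of 0.14, among them ACSL1, which activates fatty acids, at 0.35 and CRAT, carnitine acetyltransferase, at 0.24. CPT1A, which loads fatty acids onto carnitine, was the exception at -0.21, and SLC25A20, the carrier of its products, stood at -0.03.

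**Figure D4:**
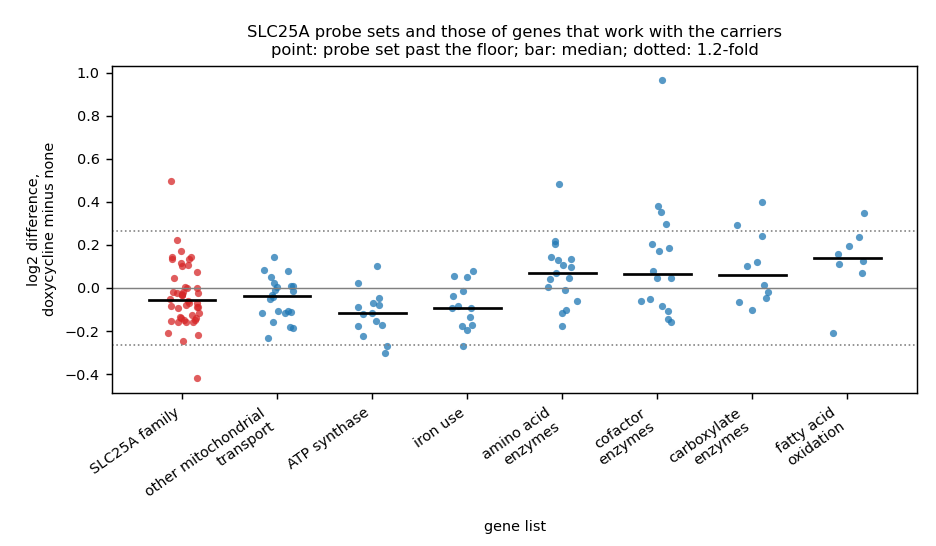
Log2 difference, doxycycline minus none, of the probe sets past the floor in the SLC25A family (red) and in 7 lists of genes that work with the carriers (blue), with bars at the median and dotted lines at 1.2-fold. The medians run from -0.12 for ATP synthase to 0.14 for fatty acid oxidation, and that of the SLC25A family is -0.06.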

How the data were processed

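Total RNA from each sample (0.3 µg, integrity number 10) was labelled with biotin and hybridised to 1 Affymetrix array, per the labels. The series' design text names another array type than the platform annotation, a whole-transcript array whose probe set numbers match the table, and the annotation was used. Per the submitters' processing notes, the authors used RMA in Affymetrix Expression Console 1.1.1 to make the deposited log2 values. That the base is 2 was taken from RMA and the range of values, 1.61 to 14.6. RMA compresses differences at low signal, and its quantile step hides any change common to the whole transcriptome. No build is stated for the array annotation, so coordinates are printed for RefSeq promoters only.

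Of 33297 probe sets, 19460 had 1 symbol, 1754 several and 12083 none here. The symbols of 19429 of the 19460 were updated by Entrez ID to RefSeq (GRCh38.p14) for the partner and marker lists, which used probe sets with 1 symbol. Each probe set kept its own value, and the background was all probe sets with at least 1 symbol past the floor of 6. Robust SD is 1.4826 times the median absolute deviation. For the motif comparison a gene took its probe set with the highest mean. Members, substrate groups, lists, fold sizes and motifs were chosen with earlier results of these data known. All SLC25A probe sets are named, with the 3 members furthest from 0 of each partner list; other genes were named after their values were seen. No p-value was computed, since each group held 1 sample. Steps were tested on simulated data with planted changes larger than the family's median difference, so the check does not cover differences that small. Alternatives were floors of 5, 7 and 8 or none, centring, quantile normalization, a loess trend (span 0.3), 1 value per gene and leaving out probe sets with several symbols. Analyses ran in Python 3.11.15 with pandas 2.3.3 and numpy 2.4.6, loess in statsmodels 0.14.6, rank correlations in scipy 1.17.1 and plots in matplotlib 3.10.9.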

Additional observations from a re-analysis of the deposited data

How the results depend on the processing

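Under the 10 alternatives the median of the family stayed negative, from -0.07 to -0.03, and 67.4% to 75.9% of its members were lower, against 47.8% to 50.1% of all probe sets. The medians of the 10 substrate groups and 7 partner lists kept their sign wherever a group had members, but some moved in size. The range was -0.14 to -0.05 for iron, -0.08 to -0.02 for members without a settled substrate and -0.04 to -0.01 for cofactor and nucleotide carriers. Among partner lists it was 0.01 to 0.06 for carboxylate enzymes and -0.04 to -0.02 for other mitochondrial transport. At least 1.2-fold higher were 3 members with no floor, which added SLC25A27 and SLC25A52, and 0 with a floor of 8, which leaves SLC25A30 out. At least 1.2-fold lower were 0 with a floor of 8 and 0 with 1 value per gene from its highest probe set, since both leave out the dimmer SLC25A51 probe set. The count at 1.5-fold was 0 in both directions under all 10. No paired analysis was possible because each group held 1 sample, and for the same reason no sample could be left out in turn. With 1 array a group, a real difference of the size seen here cannot be told from variation between cultures or arrays.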
